A study of Mus musculus with 6 samples.

Results

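Transcript levels of the Hippo pathway were read in the lens transition zone of mouse embryos, through 10 genes chosen by symbol: the upstream regulator Nf2, the kinases Lats1 and Lats2, the coactivators Yap1 and Wwtr1, the DNA-binding partners Tead1 and Tead2, and the target genes Amotl2, Ctgf and Cyr61. All 10 were found among the 23420 genes of the count table, and all 10 passed the filter on low counts that left 12257 genes for testing. The transition zone is the part of the lens where epithelial cells stop dividing and start to elongate as fibre cells. RNA-seq libraries were made from it at E14.5, with 3 libraries in each of 2 groups. Every embryo was of mixed strain background and carried Le-Cre, a transgene that produces Cre recombinase in the surface ectoderm from which the lens forms. Control embryos had Le-Cre alone (the titles call them wild type). The embryos called mutant here had Le-Cre with Etv4-/-, Etv5 fl/fl and Etv1 fl/fl, which target the Pea3 transcription factors acting below fibroblast growth factor receptors. The Etv4 allele is null in every cell of these embryos, whereas Etv1 and Etv5 can be lost only where Cre is active. Separate embryos are not stated for the libraries, and p-values therefore cover only how these libraries vary.

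In the Hippo pathway, the kinases Mst1 and Mst2 (genes Stk4 and Stk3) activate the Lats kinases, and Lats phosphorylates the coactivators YAP (gene Yap1) and TAZ (gene Wwtr1) so that they stay in the cytoplasm. Merlin, the product of Nf2, helps to bring Lats to the cell membrane. When the cascade is quiet, YAP and TAZ enter the nucleus and bind TEAD factors on DNA, where they switch on genes such as Ctgf, Cyr61 and Amotl2. Amotl2 in turn encodes a junction protein that holds YAP back. Much of this control acts on protein phosphorylation, which RNA-seq does not measure. In the lens, Yap1 is known for keeping epithelial cells in their progenitor state and Nf2 for letting fibre cells leave the cell cycle.

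The TEAD factors recognise the short motif CATTCC, and this motif was looked for in the promoters because Yap1, Wwtr1 and the target genes are what the results turn on. RefSeq promoter windows of the assembly GRCm38.p6, from 250 bases before to 50 after the start site, were found for 8 of the 10 genes, in 11 windows. Cyr61 stands there as Ccn1. Entries for Tead1 and Ctgf were missing. The motif stood on 1 of the strands in 6 of the 11 windows, those of Yap1, Wwtr1 (2 overlapping windows), Lats2, Amotl2 and Cyr61, against 14.7% of all 32851 windows. Both Wwtr1 windows hold the same match, so the matches are those of 5 of the 8 genes. The 4 windows below show the coactivator genes and the target genes, with the motif CATTCC or its reverse complement GGAATG in capitals.
Yap1, chr9:8004547-8004846, minus strand: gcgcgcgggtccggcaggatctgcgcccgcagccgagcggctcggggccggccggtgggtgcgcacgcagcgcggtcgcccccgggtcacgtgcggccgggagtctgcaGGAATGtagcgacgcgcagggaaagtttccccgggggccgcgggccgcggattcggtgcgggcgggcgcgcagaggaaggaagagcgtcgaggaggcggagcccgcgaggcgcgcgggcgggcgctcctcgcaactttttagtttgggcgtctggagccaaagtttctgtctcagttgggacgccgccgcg
Wwtr1, chr3:57575861-57576160, minus strand: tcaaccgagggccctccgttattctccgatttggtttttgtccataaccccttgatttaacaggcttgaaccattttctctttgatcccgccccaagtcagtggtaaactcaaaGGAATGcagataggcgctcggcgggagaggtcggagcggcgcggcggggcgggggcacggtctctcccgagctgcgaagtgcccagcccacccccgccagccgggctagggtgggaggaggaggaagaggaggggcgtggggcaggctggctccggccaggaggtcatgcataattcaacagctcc
Amotl2, chr9:102717554-102717853, plus strand: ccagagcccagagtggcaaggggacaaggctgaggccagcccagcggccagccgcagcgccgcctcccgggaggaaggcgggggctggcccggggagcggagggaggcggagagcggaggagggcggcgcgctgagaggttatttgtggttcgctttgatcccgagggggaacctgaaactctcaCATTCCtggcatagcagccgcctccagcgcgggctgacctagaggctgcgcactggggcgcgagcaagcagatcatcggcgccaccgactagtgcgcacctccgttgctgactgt
Cyr61, chr3:145649936-145650235, minus strand: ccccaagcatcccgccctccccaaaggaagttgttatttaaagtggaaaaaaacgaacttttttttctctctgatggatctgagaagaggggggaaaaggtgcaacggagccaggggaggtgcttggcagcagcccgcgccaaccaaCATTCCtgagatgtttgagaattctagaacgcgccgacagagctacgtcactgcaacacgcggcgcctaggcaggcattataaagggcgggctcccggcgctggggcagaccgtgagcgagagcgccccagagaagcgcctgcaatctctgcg
In these 4 windows the match began 141, 136, 65 and 103 bases before the start site. No window of the 8 genes held the AP-1 motif TGACTCA, the ETS motif CCGGAAGT or the CArG box of serum response factor on either strand, letters that 5.202%, 3.89% and 1.63% of all windows hold. For TEAD, AP-1 and ETS only these exact letters were searched, so sites with other letters were not counted. A match is a description of the sequence, and binding was not measured.

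Library totals lay between 13364742 and 17301168 counts, so that a single count was worth 0.0508 to 0.0825 CPM (a count divided by the TMM-scaled size of its library). Etv1 lay between 45.4 and 70.7 CPM in control and 21.6 and 29.0 CPM in mutant libraries, Etv5 between 168.2 and 245.5 CPM and between 82.9 and 116.2 CPM, and Etv4 between 2.13 and 3.21 CPM and between 3.71 and 4.92 CPM. Etv1 passed the test described below (edgeR adjusted p = 0.0319), Etv5 was just outside it (edgeR adjusted p = 0.0503), and Etv4 was not lower in the mutant libraries. Which exons the counts cover is not given, so the Etv4 values do not check its null allele. Mutant library 1 held 711 counts of Xist and 2 of Ddx3y, and the other libraries held at least 521 of Ddx3y, which sets it apart from them in sex-linked transcripts. Of the lens markers, all 6 epithelium genes and 7 of 10 fibre genes averaged at least 5 CPM. Control library 1 and mutant library 2 stood apart, with summed epithelium markers of 306.5 and 329.8 CPM, against 709.6 and 935.4 CPM in control libraries 2 and 3 and 623.5 and 625.6 CPM in mutant libraries 1 and 3. Fibre markers summed to 31234, 20951 and 15634 CPM in control libraries and to 10290, 19699 and 8117 CPM in mutant libraries, again with the highest of each group in control library 1 and mutant library 2, and no tested gene of either list passed the test. Among marker lists of cells around the lens, 9 of 10 periocular mesenchyme, 6 of 8 endothelium and all 8 macrophage genes averaged under 5 CPM. The mesenchyme gene above that level was Pdgfra, and the endothelium genes were Tek and Egfl7. Six6 (retina), Tyr and Rpe65 (pigment epithelium) and Krt12 (cornea) were at 0 in every library. Other genes of their lists were detected. Hes5 (retina) lay between 3.29 and 17.02 CPM in control and between 6.68 and 12.03 CPM in mutant libraries. The pigment epithelium list summed to between 3.82 and 9.12 CPM in control and between 2.998 and 6.51 CPM in mutant libraries. The surface ectoderm and cornea list summed to between 0.776 and 3.04 CPM in control and 2.23 and 8.72 CPM in mutant libraries.

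None of the 10 genes passed an adjusted p of 0.05 between mutant and control libraries in edgeR's quasi-likelihood test, with the Benjamini-Hochberg adjustment over all 12257 tested genes. The test called 272 genes over the genome, or 2.22%. That count was 92 when control library 2 was left out, 142 for control library 3, 98 for mutant library 1, 479 for mutant library 2 and 91 for mutant library 3. DESeq2 and limma voom also called 0 of the 10 genes. At an unadjusted p under 0.05 there was 1, Yap1, in each of the 3 tools. In edgeR 16.2% of all tested genes reached that level. Of the same 12257 genes, DESeq2 called 821 and limma voom 808. An unadjusted p under 0.05 was reached by 2108 genes in DESeq2 and 2863 in limma voom, against 1985 in edgeR. Yap1 was also the only 1 of the 10 whose libraries did not overlap between groups, a pattern held by 22.7% of all tested genes. The log2 fold changes of the 10 genes were positive for 4 and negative for 6, with a median of -0.06. Over all tested genes 50.2% were positive and the median was 0.00. Fewer cells of a type and less RNA per cell cannot be told apart in these bulk libraries. The values by library are plotted for all 10 genes.

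**Figure D1:**
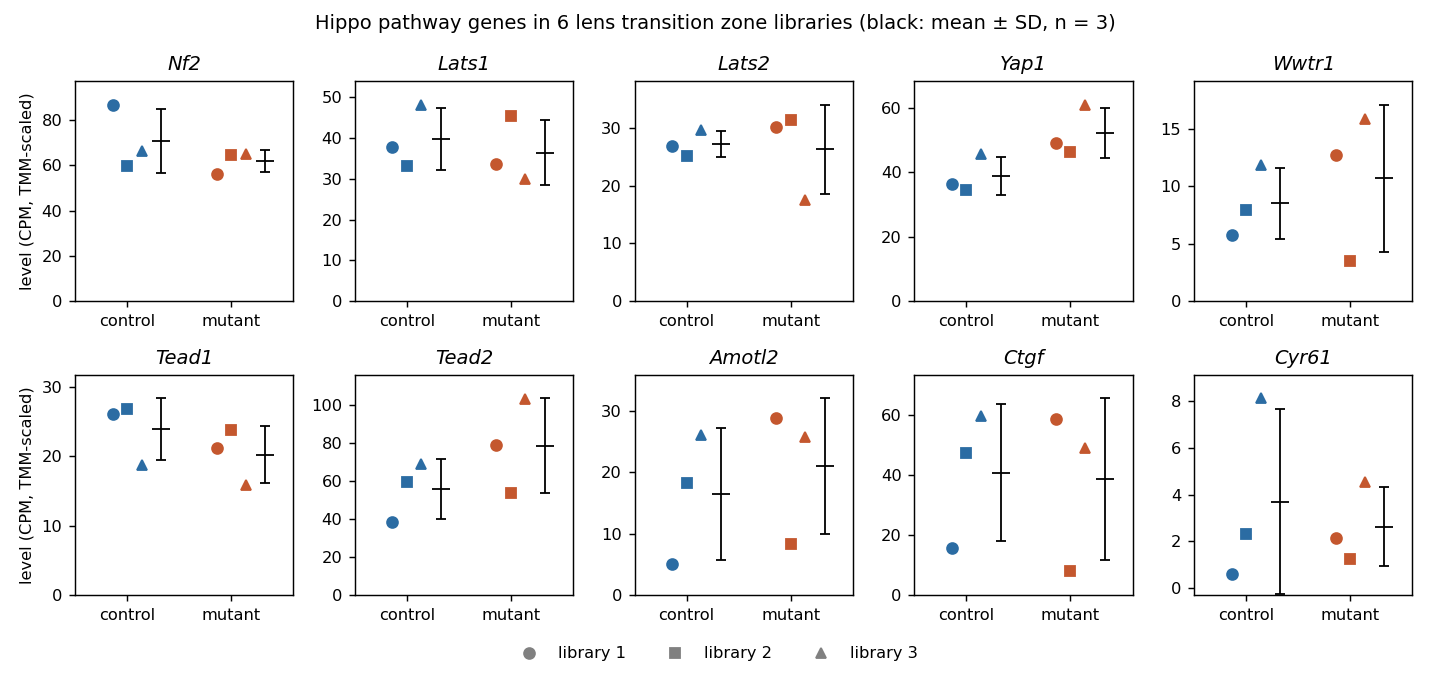
Normalised level (CPM, linear axis) of each of the 10 Hippo pathway genes in 3 control (blue) and 3 mutant (red-brown) libraries; marker shapes give the library number, and black bars give the mean ± SD (n = 3). The groups overlap in every panel but Yap1, and Wwtr1, Amotl2 and Ctgf are low in control library 1 and mutant library 2.

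Nf2 did not pass, and its groups overlapped. Nf2, whose product merlin links the cell membrane to the Lats kinases, stood at 86.8, 59.6 and 66.3 CPM in control libraries 1, 2 and 3 and at 56.1, 64.5 and 65.0 CPM in mutant libraries 1, 2 and 3. Control library 1 was the high value, and the other 5 libraries lay close together. Mutant over control was -0.20 ± 0.17 (SE) on the log2 scale, and the 95% interval runs from a ratio of 0.671 to 1.14 of mutant over control (edgeR adjusted p = 0.603). With single libraries left out, the log2 value ranged from -0.31 (control library 2) to -0.026 (control library 1).

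The Lats kinase genes, which encode the kinases that phosphorylate YAP and TAZ, overlapped between groups. Lats1 was at 37.8, 33.2 and 48.1 CPM in control libraries and 33.7, 45.3 and 29.98 CPM in mutant libraries, with the high values in control library 3 and mutant library 2. Its log2 fold change of -0.13 ± 0.21 (SE) has a 95% interval of 0.654 to 1.28 as a ratio (edgeR adjusted p = 0.810). Lats2, which is itself a target of YAP in many cells, was at 26.8, 25.1 and 29.7 CPM in control libraries and 30.2, 31.3 and 17.4 CPM in mutant libraries. Mutant library 3 was the low value, and the other 5 libraries lay within 25.1 to 31.3 CPM. For Lats2 the log2 fold change was -0.05 ± 0.24 (SE), with a 95% interval of 0.662 to 1.41 as a ratio (edgeR adjusted p = 0.940). Both signs depended on single libraries: Lats1 was positive without control library 3 (log2 fold change 0.03), and Lats2 without control library 3 (0.02) or mutant library 3 (0.18).

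Yap1 lay higher in every mutant library than in any control library, without passing the test. Yap1, the gene of the coactivator YAP, stood at 36.5, 34.7 and 45.8 CPM in control libraries and at 49.1, 46.3 and 61.1 CPM in mutant libraries. The lowest mutant value, in library 2, was above the highest control value, in library 3, by less than 1 CPM. Group means were 39.0 CPM ± 5.96 and 52.2 CPM ± 7.81 (SD, n = 3), and the log2 fold change of 0.42 ± 0.17 (SE) missed the threshold (edgeR unadjusted p = 0.0393; adjusted p = 0.279). Over the alternatives run, its log2 fold change stayed between 0.29 and 0.55, and the lowest adjusted p was 0.106, by limma voom.

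Wwtr1, the gene of the second coactivator TAZ, varied far more than Yap1 inside each group. It stood at 5.76, 7.96 and 11.9 CPM in control libraries and at 12.7, 3.55 and 15.9 CPM in mutant libraries. Mutant library 2 held the lowest and mutant library 3 the highest of the 6 values, a 4.47-fold range within the mutant group, against a 1.32-fold range for Yap1. Its log2 fold change of 0.33 ± 0.52 (SE) allows ratios from 0.548 to 2.89 (95% interval; edgeR adjusted p = 0.804). Without mutant library 3 it was -0.06.

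The TEAD genes encode the factors that carry YAP and TAZ to DNA, and the family member of higher level here was Tead2. Tead2 stood at 38.6, 59.6 and 69.1 CPM in control libraries and at 79.1, 53.6 and 103.2 CPM in mutant libraries. Mutant libraries 1 and 3 lay above every control library, and mutant library 2 lay among the controls. Its log2 fold change was 0.50 ± 0.28 (SE; 95% interval 0.896 to 2.22 as a ratio; edgeR adjusted p = 0.439), and it was 0.29 without control library 1 and 0.25 without mutant library 3. Tead1 stood at 26.1, 26.8 and 18.8 CPM in control libraries and at 21.2, 23.7 and 15.8 CPM in mutant libraries. The lowest Tead1 level of each group was in library 3, where Tead2 was highest. The log2 fold change of Tead1 was -0.24 ± 0.23 (SE; 95% interval 0.592 to 1.21 as a ratio; edgeR adjusted p = 0.646). With single libraries left out it ranged from -0.39 (control library 3) to -0.088 (mutant library 3).

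Per exon length, the ratio of Tead2 to Tead1 was 4.20, 6.30 and 10.4 in control libraries and 10.6, 6.40 and 18.5 in mutant libraries. Tead2 was therefore the higher of the pair in all 6 libraries, and the ratio overlapped between groups. In GENCODE M21, 27 exon bases of Tead2 lie opposite those of Cd37, whose reads cannot be told apart there without strand. The other family members were low: Tead3 had a control mean of 2.33 CPM ± 1.40 and a mutant mean of 2.27 CPM ± 0.654 (SD, n = 3), and Tead4 had means of 0.701 and 0.589 CPM.

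The target genes showed the widest spread of the 10 genes, and it lay within the groups. Ctgf, which encodes a secreted matrix-binding protein of the CCN family, stood at 15.5, 47.3 and 59.4 CPM in control libraries and at 58.5, 8.08 and 49.0 CPM in mutant libraries. Control library 1 and mutant library 2 were low, and the other 4 libraries lay between 47.3 and 59.4 CPM. The highest mutant library was 7.24 times the lowest, while group means were 40.7 CPM ± 22.6 and 38.5 CPM ± 26.8 (SD, n = 3). The log2 fold change of -0.08 ± 0.70 (SE) therefore allows ratios from 0.306 to 2.95 (95% interval; edgeR adjusted p = 0.970). Its sign was positive without control library 2 (log2 fold change 0.04), control library 3 (0.30) or mutant library 2 (0.40).

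Amotl2, the gene of an angiomotin family protein that binds YAP at junctions, overlapped between groups and did not pass. It stood at 5.01, 18.2 and 26.1 CPM in control libraries and at 28.8, 8.33 and 25.7 CPM in mutant libraries. The 2 low values were again in control library 1 and mutant library 2. Its log2 fold change was 0.35 ± 0.62 (SE; 95% interval 0.465 to 3.49 as a ratio; edgeR adjusted p = 0.832), and it was -0.07 without control library 1.

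Cyr61, which encodes a CCN protein that cells induce quickly on stretch or growth factors, was the least expressed of the 10 by CPM. It had 8, 38 and 147 counts in control libraries and 42, 15 and 83 in mutant libraries, or 0.598, 2.31 and 8.15 CPM and 2.13, 1.24 and 4.52 CPM. Control library 3 alone was 13.6 times control library 1, so the group means of 3.68 CPM ± 3.96 and 2.63 CPM ± 1.70 (SD, n = 3) say little about a difference. Its log2 fold change was -0.48 ± 0.87 (SE; 95% interval 0.178 to 2.87 as a ratio; edgeR adjusted p = 0.832), and it was 0.85 without control library 3.

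**Figure D2:**
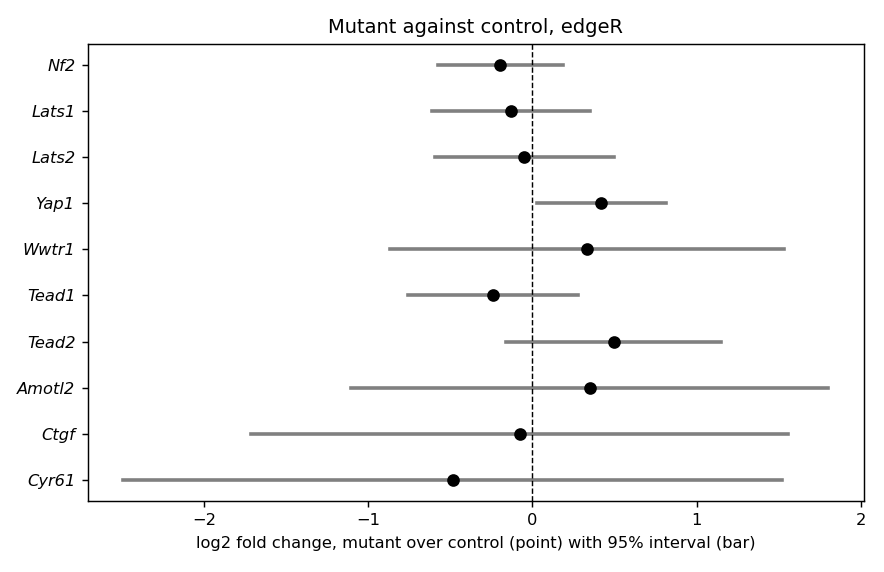
Log2 fold change of mutant over control for the 10 genes (points) with unadjusted 95% intervals (bars) from edgeR; the dashed line marks no difference. The intervals are narrow for Nf2, Lats1, Lats2, Yap1 and Tead1 and wide for the target genes, from -2.49 to 1.52 for Cyr61.

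Wwtr1, Tead2, Amotl2, Ctgf and Cyr61 had their 2 lowest levels in the same libraries, 1 from each group. For these 5 of the 10 genes they were control library 1 and mutant library 2, in either order, a pattern found in 12.99% of all tested genes. The same 2 libraries were lowest for 5 of 6 lens epithelium markers, all but Pdpn. Foxe3, a transcription factor gene of lens epithelium, stood at 51.2, 214.0 and 282.8 CPM in control libraries and at 152.1, 39.7 and 155.7 CPM in mutant libraries. Cdh1, the gene of the epithelial adhesion protein E-cadherin, was at 38.3 CPM in control library 1 and 70.3 CPM in mutant library 2, and between 131.4 and 235.1 CPM in the others. Yap1, Tead1, Lats1, Lats2 and Nf2 did not have their 2 lowest levels in these 2 libraries. The part of the epithelium share in the levels of the target genes was not tested.

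**Figure D3:**
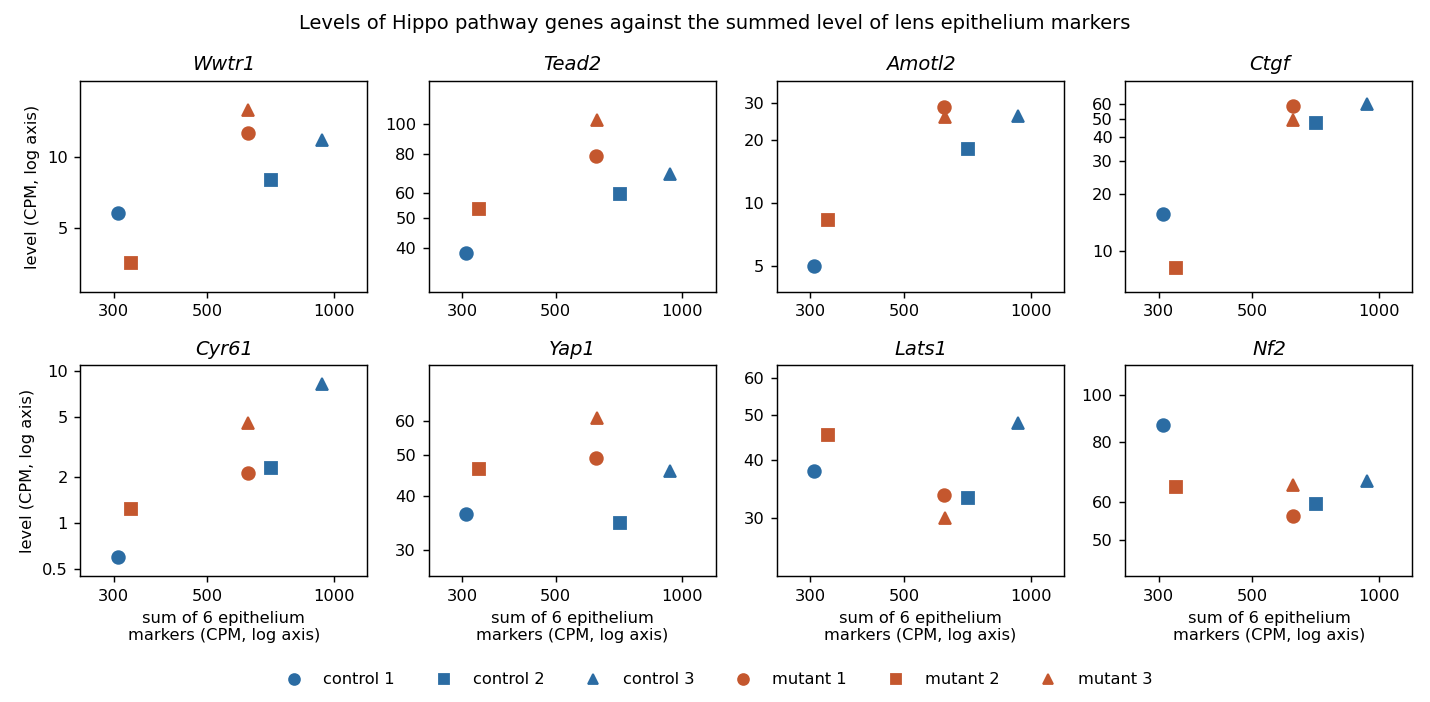
Level of 8 Hippo pathway genes (CPM, log axes) against the sum of 6 lens epithelium markers (CPM) in the same library; blue is control, red-brown is mutant and shapes give the library number. Control library 1 and mutant library 2, at the left, are lowest for Wwtr1, Tead2, Amotl2, Ctgf and Cyr61, and not for Yap1, Lats1 or Nf2.

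The spread of these genes was large for their level. The within-group SD of log2 CPM was 1.30 for Ctgf, 1.19 for Cyr61, 1.08 for Amotl2 and 0.84 for Wwtr1, against a median of 0.27 over all tested genes. Set against the 500 tested genes nearest in level, the spread of Ctgf exceeded 99.6% of them, that of Amotl2 99.2%, those of Wwtr1 and Cyr61 96.2% each and that of Tead2 93.6%. Yap1, at 55.0%, and Nf2, at 58.8%, lay near the middle. The comparison was also run without control library 1 and mutant library 2, a choice made after the data were seen. There the log2 fold change of Ctgf was 0.01 ± 0.18 (SE), that of Amotl2 0.30 ± 0.23, that of Wwtr1 0.53 ± 0.28, that of Tead2 0.51 ± 0.18 and that of Cyr61 -0.65 ± 0.59, with 2 libraries in each group. None of the 10 genes passed in that fit, where the lowest edgeR adjusted p among them was 0.108, for Tead2.

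Listed markers of the cells around the lens, many of which express Ctgf and Cyr61, were mostly low. All 10 mesenchyme markers summed to between 52.3 and 156.4 CPM in control libraries and between 95.2 and 170.4 CPM in mutant libraries, mostly Pdgfra. Without Pdgfra, the other 9 mesenchyme markers, among them Col1a1, Col3a1 and Twist1, summed to between 3.88 and 18.3 CPM in control and from 4.95 up to 10 CPM in mutant libraries. Genes within this sum differed in direction. Twist1 stood at 0, 0.850 and 0.222 CPM in control and at 5.43, 1.32 and 3.49 CPM in mutant libraries. Col3a1 stood at 3.66, 4.98 and 0.554 CPM in control and at 0.457, 0.577 and 0.109 CPM in mutant libraries. Neither passed (edgeR adjusted p = 0.160 and 0.152). All 8 endothelium markers summed to between 64.7 and 77.1 CPM in control and between 66.1 and 98.4 CPM in mutant libraries. Without Tek and Egfl7, the other 6 endothelium markers, among them Pecam1 and Cdh5, summed to between 2.43 and 16.7 CPM in control and between 1.40 and 3.22 CPM in mutant libraries. No marker of these 2 lists was at 0 in all libraries. The highest sum of these 6 was in control library 1, where Ctgf, Amotl2 and Cyr61 were low, while the highest sum of all 8 was in mutant library 3. The 8 macrophage markers summed to 9.19, 3.77 and 1.22 CPM in control libraries 1, 2 and 3. In mutant libraries 1, 2 and 3 they summed to 27.8, 3.55 and 30.4 CPM. Mutant library 2 was thus the lowest of its group, and control library 1 the highest of its group. Of 7 erythroid markers found, 4 were at 0 in all libraries, but the globin gene Hbb-y was not low. Hbb-y stood at 150.8, 51.3 and 64.0 CPM in control libraries and at 68.0, 77.0 and 261.9 CPM in mutant libraries. The part of these cells in the levels of the target genes was not tested.

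Levels can be set beside each other across genes only per length, and CPM was therefore divided by the exon length of each gene in GENCODE M21. By the control mean, the order was Ctgf, Tead2, Nf2, Lats1, Yap1, Lats2, Amotl2, Cyr61, Wwtr1 and Tead1. Ctgf led with 14.2 CPM per kilobase ± 7.91 (SD, n = 3), followed by Tead2 with 11.7 ± 3.25 and Nf2 with 10.4 ± 2.07 CPM per kilobase. Yap1 stood at 4.21 ± 0.644 and Wwtr1 at 1.78 ± 0.647 CPM per kilobase. Control libraries of neighbours in this order overlapped at every step but that from Nf2 to Lats1, the latter at 5.44 CPM per kilobase ± 1.05. In the mutant libraries the first in order was Tead2, at 16.4 CPM per kilobase ± 5.18 (SD, n = 3), ahead of Ctgf at 13.5 ± 9.37 CPM per kilobase.

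The coactivator genes kept their rank in all 6 libraries. Yap1 exceeded Wwtr1 per kilobase by 3.27, 2.25 and 1.99 times in control libraries and by 1.999, 6.75 and 1.99 times in mutant libraries. The ratio was highest in mutant library 2, where Wwtr1 was lowest. Lats1 exceeded Lats2 per kilobase in every library, by 1.07 to 1.64 times. Ctgf exceeded its relative Cyr61 by between 4.61 and 19.4 times per kilobase, with both of these extremes in mutant libraries. In GENCODE M21, up to 2955 exon bases of Lats2 are shared with Gm49361 on the same strand, and up to 826 of Ctgf and 116 of Yap1 lie opposite exons of Gm15270 and Gm20416. None of these 3 genes has a row in the count table, and reads there cannot be told apart from those of the named genes. Exon lengths come from another annotation than the one behind the counts, which shifts the level of a gene by the same factor in every library. Ratios and order between genes can change with it, above all where they are close, as for Lats1 and Lats2.

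**Figure D4:**
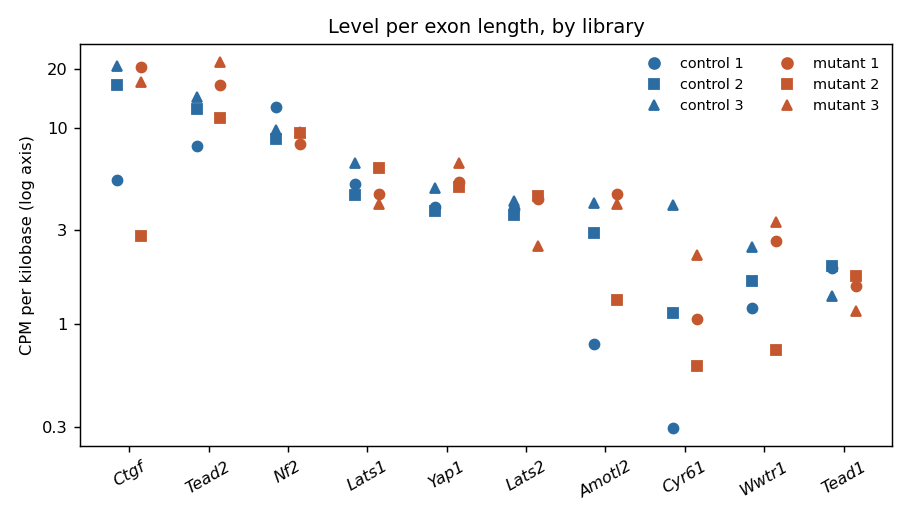
CPM per kilobase of exon (log axis) of the 10 genes in each library, ordered by the control mean; blue is control, red-brown is mutant and shapes give the library number. Ctgf, Tead2 and Nf2 lead, and the libraries of Amotl2, Cyr61, Ctgf and Wwtr1 are spread most widely.

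The rest of the pathway was read through lists of other genes, a few of which, such as Tead4, stand in more than 1 list. Over all tested genes, 2.22% passed in edgeR and 16.2% had an unadjusted p under 0.05, the shares to set beside each list. Calls by the other tools stand against larger counts, 821 genes in DESeq2 and 808 in limma voom, where edgeR called 272. Of 9 tested genes of the core (Hippo kinases, their scaffold proteins, and TEAD and Vgll factors), none passed in edgeR, DESeq2 or limma voom, and in each tool 1 had an unadjusted p under 0.05. That gene was Vgll4 in edgeR, which encodes a repressor that competes with YAP for TEAD. Vgll4 had 46.2 CPM ± 4.88 as its control mean and 63.3 CPM ± 9.60 as its mutant mean (SD, n = 3), and its log2 fold change of 0.46 ± 0.16 (SE) did not pass (edgeR adjusted p = 0.206). Stk3 is the Mst2 gene, and Sav1 and Mob1a encode partner proteins of the Hippo kinases. Their log2 fold changes were 0.24 ± 0.19, -0.17 ± 0.28 and 0.15 ± 0.27 (SE), and none passed. These values rested on single libraries: Stk3 was at 0.047 without mutant library 1, Sav1 at -0.055 without control library 3 and -0.053 without mutant library 3, and Mob1a at -0.0058 without mutant library 1. The median of the core list was 0.03.

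Of 37 tested regulators upstream of Lats or binding YAP and TAZ, none passed in edgeR and 1 was under 0.05 before adjustment. Of these, 17 log2 fold changes were positive and 20 negative (median -0.06). The gene under 0.05 was Tjp1, which encodes the tight junction protein ZO-1. Tjp1 stood at 202.0, 145.6 and 156.4 CPM in control and at 97.3, 124.1 and 77.8 CPM in mutant libraries, without overlap. On the log2 scale it differed by -0.75 ± 0.20 (SE; edgeR adjusted p = 0.106). Tjp1 passed as lower with DESeq2 (adjusted p = 0.0201), with limma voom (adjusted p = 0.0360) and, in edgeR, without mutant library 2 (log2 fold change -0.94; adjusted p = 0.0359) or without it and control library 1 (-0.78; adjusted p = 0.00907). Strn3, Ywhaz and Scrib, which encode a phosphatase scaffold, a protein that binds phosphorylated YAP and a polarity protein, did not pass, at 0.31, 0.27 and 0.35 on the log2 scale.

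Among 27 tested genes often used as YAP and TAZ readouts, Tgfb2 rose and the others did not pass in edgeR. Of all tested genes, 1.14% were called higher. Tgfb2, which encodes a secreted ligand of the TGF-beta family, stood at 111.4, 123.3 and 105.6 CPM in control and at 201.1, 239.4 and 224.4 CPM in mutant libraries. Mutant library 2 was the highest of the 6, unlike for Ctgf and Amotl2. Tgfb2 rose by 0.97 ± 0.13 (SE) on the log2 scale (edgeR adjusted p = 0.00831). The call held in all 14 alternatives, where the log2 fold change lay between 0.87 and 1.03. In some it held narrowly, with an edgeR adjusted p of 0.0492 without mutant library 3. The promoter window of Tgfb2 held none of the TEAD, AP-1, ETS and CArG letters searched above. Of the list, 13 log2 fold changes were positive and 14 negative, with a median of -0.06.

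Of the 27 readouts, 7 had an unadjusted p under 0.05 in edgeR, where 16.2% of all tested genes did. Those named here other than Tgfb2 did not pass after adjustment. Thbs1, the gene of the matrix protein thrombospondin 1, stood at 17.6, 58.2 and 100.4 CPM in control and at 6.85, 0.577 and 7.74 CPM in mutant libraries. The groups did not overlap, and the lowest library of each group was again control library 1 and mutant library 2. Its log2 fold change of -3.50 ± 0.87 (SE) missed the threshold in edgeR (adjusted p = 0.0980), and passed with DESeq2 (adjusted p = 0.0237) and limma voom (adjusted p = 0.0439). In edgeR without control library 1 and mutant library 2, Thbs1 was at -3.44 and passed (adjusted p = 1.6e-05). Fstl1, which encodes a secreted glycoprotein, missed the threshold in edgeR at -0.55 ± 0.13 (SE; adjusted p = 0.0814) and passed with DESeq2 (adjusted p = 0.0101) and limma voom (adjusted p = 0.0406). Asap1, the gene of an Arf GTPase-activating protein, was at -0.60 ± 0.20 on the same scale (SE; edgeR adjusted p = 0.182). Limma voom also called 2 genes named after their values were seen, Igfbp3 as higher (1.17 in edgeR; adjusted p = 0.273) and Ccdc80 as lower (-0.69 in edgeR; adjusted p = 0.232), and the groups overlapped for both. The cardiac and muscle readout Ankrd1 had 30 counts over all libraries and Areg had 0, so both were too low to test. The relatives of Ctgf and Cyr61 were also too low to test, with 0 counts of Nov, 9 of Wisp1, 19 of Wisp2 and 36 of Wisp3 over all 6 libraries.

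Ctgf and Cyr61 also respond to serum response factor and the actin cytoskeleton, and a list of such targets gave 1 gene higher of 14 tested, where 1.14% of all tested genes were called higher. Tagln2, which encodes the actin-binding protein transgelin 2, rose from 7.47, 2.61 and 4.43 CPM in control to 30.4, 38.9 and 51.2 CPM in mutant libraries (log2 fold change 3.06 ± 0.39 (SE); edgeR adjusted p = 0.00813). Its call held in all 14 alternatives, narrowly without control library 3 (edgeR adjusted p = 0.0465). Acta2, the gene of smooth muscle actin, stood at 2.32, 12.6 and 4.43 CPM in control and at 75.2, 20.6 and 185.9 CPM in mutant libraries, and did not pass in edgeR (log2 fold change 3.85 ± 0.89 (SE); adjusted p = 0.0818). Acta2 passed with DESeq2 (adjusted p = 0.00470), with limma voom (adjusted p = 0.0405) and, in edgeR, without mutant library 2 (log2 fold change 4.32, adjusted p = 0.0377). It did not pass in edgeR without control library 1 and mutant library 2 together (adjusted p = 0.19). Nor did it pass there with no filter (edgeR adjusted p = 0.279) or with the replicate block (edgeR adjusted p = 0.1875). Tagln was near the floor in control libraries, at 0.747, 0.668 and 0.443 CPM, and stood at 6.75, 1.73 and 18.3 CPM in mutant libraries. It did not pass either in edgeR (log2 fold change 3.85 ± 0.84 (SE), adjusted p = 0.0664) or with limma voom (adjusted p = 0.0671). Tagln passed with DESeq2 (adjusted p = 1.4e-05) and without mutant library 2 (log2 fold change 4.33, edgeR adjusted p = 0.00479). Myl9, a myosin light chain gene named after its values were seen, was at 1.53 ± 0.50 (SE) in edgeR without passing (adjusted p = 0.195), and was called higher by DESeq2 and limma voom. Tpm2, a tropomyosin gene, was at -0.44 ± 0.14 on the log2 scale (SE; edgeR adjusted p = 0.161). The median of the list was 0.38, and 11 of its 14 log2 fold changes were positive. The macrophage markers given above were also high in mutant libraries 1 and 3, where Acta2 and Tagln were highest; their part in these levels was not tested.

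**Figure D5:**
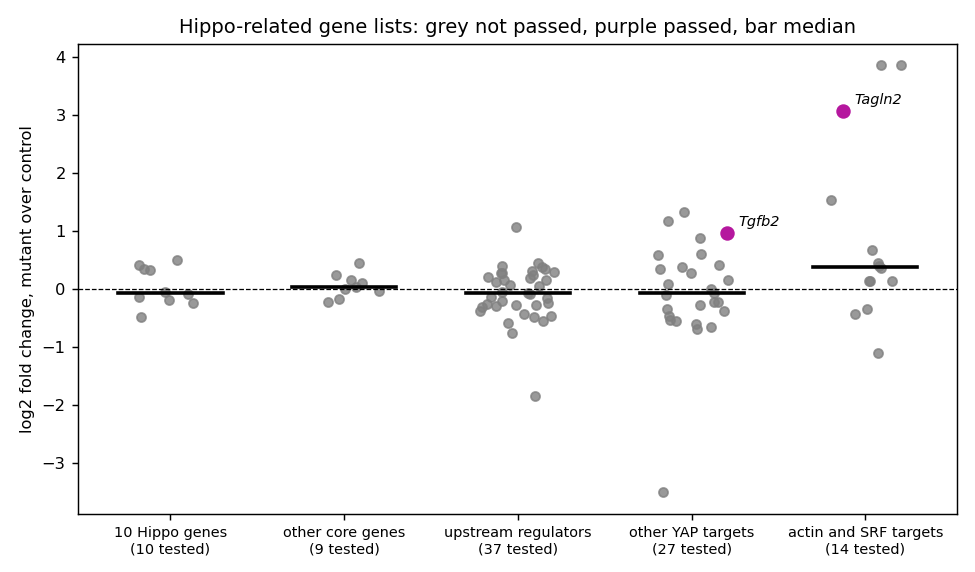
Log2 fold change of mutant over control for each tested gene of 5 lists (points; horizontal position within a list is random), with the median of each list as a black bar. Purple points passed an edgeR adjusted p of 0.05: Tgfb2 at 0.97 and Tagln2 at 3.06, while no point of the 10 Hippo genes, the other core genes or the upstream regulators passed.

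Genes with the pattern most like a coactivator and a target gene were taken by Pearson r of log2 CPM over the 6 libraries, among 9692 other genes with a mean of at least 5 CPM. For Yap1 they were Doc2a (r = 0.996), Hist2h2be (0.990) and Cbx5 (0.989). For Cyr61 they were Mtmr4, Rmi1 and Smad3 (r = 0.9774, 0.9772 and 0.9751). With 6 libraries and this many genes, such values are a description only.

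The authors' deposited table of their own comparison gave none of the 10 genes an adjusted p under 0.05. In the authors' deposited table, the lowest adjusted p among them was that of Yap1, at 0.294 with a log2 fold change of 0.41 and an unadjusted p of 0.0473. In the authors' deposited table, Ctgf, Amotl2 and Cyr61 had log2 fold changes of -0.06, 0.32 and -0.38. Tgfb2 had an adjusted p of 2.08e-07 and Thbs1 one of 0.0290 in the authors' deposited table.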

How the data were processed

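Embryos were frozen, and cDNA from the transition zone was made with a low-input SMART-seq kit, which does not mark strand, then tagmented for sequencing, per the labels' protocols. Per the submitters' processing notes, bcl2fastq 1.8.4, TopHat, Cufflinks, DESeq and the build mm9 were used. Their roles, the read counter and the annotation are given in none of the sources used here. As raw data the authors deposited whole-number counts per gene symbol (0 values differed between the per-library and series tables) and their own table of a mean signal, log2 fold changes with a score per test and p-values, raw and adjusted.

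Counts were tested in edgeR 4.0.16 (R 4.3.3): filterByExpr (minimum count 10, total 15), TMM scaling and the robust quasi-likelihood F test, adjusted by Benjamini-Hochberg over all 12257 tested genes at 0.05. SEs were derived from the F statistic; 95% intervals use its t quantile. For SD and likeness, log2 of CPM plus 0.5 was used. CPM per kilobase uses GENCODE M21 exon unions, another build than the authors'. Intervals reflect the spread between libraries. Gene and marker lists, and the rule for named genes (the 10 genes and, of each list, the 4 of lowest p), were chosen with earlier results of these data known. The procedure was tested on simulated counts of this comparison, among 12060 genes, with 8 false calls. It recovered 42.1% of 107 genes with a log2 size of 1 and 80.7% of 88 with a log2 size of 2. Simulated libraries varied independently, without the pattern shared by control library 1 and mutant library 2. Log2 sizes under 1, where the estimates of the 10 genes lie, were not simulated. Alternatives were DESeq2 size factors, TMM without crystallin genes, no filter, at least 5 CPM in 3 libraries, DESeq2 1.42.0, a block on the replicate number, limma 3.58.1 voom with quality weights and each library left out. No libraries of a group agreed within counting noise (chi-square over its degrees of freedom 29.7 to 146.4). Protein sequences were not used here.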

Additional observations from a re-analysis of the deposited data

How the results depend on the processing

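None of the 10 Hippo pathway genes passed the threshold in any of the 14 alternatives, 139 values in all, and 4 of them (Yap1, Tead1, Tead2 and Nf2) kept their sign in every alternative, with ranges of 0.29 to 0.55, -0.39 to -0.088, 0.25 to 0.71 and -0.31 to -0.026 over single libraries left out. Signs turned when single libraries were left out: the log2 fold change of Wwtr1 ranged from -0.059 to 0.74, that of Lats1 from -0.32 to 0.030, that of Lats2 from -0.19 to 0.18, that of Amotl2 from -0.074 to 0.85, that of Ctgf from -0.51 to 0.40, that of Cyr61 from -1.12 to 0.85 and that of Mob1a from -0.0058 to 0.38. Without control library 1 and mutant library 2 together, a choice made after seeing the data, Ctgf was 0.01, Lats1 -0.35 and Lats2 -0.20. Cyr61 and Tagln were not tested under the filter of 5 CPM. The count of genes called over the genome was 272; it was 122 with the replicate number as a block, 821 with DESeq2, 808 with limma voom and 1031 without control library 1 and mutant library 2, and between 91 and 479 with single libraries left out. The cause was not tested. The replicate numbers are not said to mark a litter or day. Deviations from the group means correlated at -0.33, -0.18 and 0.25 for numbers 1, 2 and 3. Those of control library 1 and mutant library 2 correlated at 0.47. With 3 libraries in each group, these values cannot show whether the numbers pair libraries. The block ended neither the call of Tgfb2 nor that of Tagln2. Depth limits Cyr61, where 1 library had 8 counts.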
